A study of Mus musculus with 8 samples.

Results

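The gene set described here is the histone methyltransferase gene Dot1l with 8 genes of its partner proteins: Mllt1, Mllt3, Mllt6, Mllt10, Aff1, Aff4, Kmt2a and Men1. Members were chosen by gene symbol from knowledge of the protein complexes. No measured value enters the rule, although earlier results of these data were known when the set was made. All 9 were found, each in 1 row, among 55573 genes in the tables. All 9 also passed the low-count filter that left 20608 genes for testing. The 8 libraries are bulk poly(A)+ RNA-seq of mouse embryonic stem cells (ESCs) and form 4 groups of 2. The group mESC holds untreated wild-type cells. The group 2C::GFP+ holds untreated cells of the 2C::GFP+ genotype, whose name refers to a GFP reporter for cells that resemble the 2-cell embryo. In 2C::GFP+/SGC the same genotype was given 2 µM SGC0946, a small-molecule inhibitor of the DOT1L enzyme, in KnockOut medium with LIF at 10 ng/ml. In 2C::GFP+/SA it was given 2 µM SGC0946 together with 2 µM AS8351, a compound known to inhibit KDM5B, which removes methyl groups from histone H3, with IL6 and its soluble receptor at 10 ng/ml in place of LIF. The labels name 2 culture media for ESCs and do not say which of them the mESC libraries had, so medium and genotype cannot be told apart in comparisons with mESC. Both media contain LIF at 10 ng/ml, so only 2C::GFP+/SA differed in LIF. Whether the reporter was used to sort cells, and whether replicates were separate cultures, is likewise not in the labels, so p-values measure the spread between libraries, which may be technical. The 2 libraries used as 2C::GFP+ were assigned by elimination, because their column names, KOSR (KnockOut serum replacement), match no label. Each comparison with that group rests on the assignment.

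DOT1L places methyl groups on lysine 79 of histone H3 (H3K79), a site on the face of the nucleosome, across the bodies of transcribed genes, and ubiquitin on histone H2B stimulates it. ENL (Mllt1) and AF9 (Mllt3) carry a YEATS domain that reads acylated lysines, and AF10 (Mllt10) and AF17 (Mllt6) bind DOT1L through a coiled coil. ENL and AF9 can instead bind AFF1 or AFF4, the scaffolds of the super elongation complex, which brings the kinase P-TEFb to RNA polymerase II. KMT2A (MLL1) methylates lysine 4 of histone H3 and is held on chromatin by menin (Men1). In many leukemias with KMT2A rearrangements, the KMT2A N terminus is fused to ENL, AF9, AF10 or AFF1. DOT1L is then recruited to the fusion's targets. DOT1L inhibition is also known to ease the reprogramming of fibroblasts to induced pluripotent stem cells. SGC0946 acts on the enzyme's activity, so an RNA level says nothing of how much H3K79 methylation is left.

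The promoters of 5 members are shown because the results turn on these genes: the drug target, the 3 members called lower in 2C::GFP+/SA than in 2C::GFP+, and Aff4, the paralog of Aff1. Each run is the 250 bases before a transcript start in RefSeq (GRCm38.p6), 5′ to 3′ on the gene's strand, and where a gene has several entries the one nearest the GENCODE gene start is given. Capitals mark matches, on either strand, to 5 motifs: GGGCGG is the GC box, CCAAT the binding site of NF-Y, TATAAA the TATA box, CACGTG the E-box and CCGGAAG the ETS core. Overlapping matches were each counted.
Dot1l promoter: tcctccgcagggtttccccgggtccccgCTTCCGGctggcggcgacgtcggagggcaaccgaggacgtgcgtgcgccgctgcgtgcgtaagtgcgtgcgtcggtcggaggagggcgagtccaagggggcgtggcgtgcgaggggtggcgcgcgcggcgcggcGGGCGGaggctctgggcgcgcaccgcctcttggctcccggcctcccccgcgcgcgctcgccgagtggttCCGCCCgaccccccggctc
Aff1 promoter: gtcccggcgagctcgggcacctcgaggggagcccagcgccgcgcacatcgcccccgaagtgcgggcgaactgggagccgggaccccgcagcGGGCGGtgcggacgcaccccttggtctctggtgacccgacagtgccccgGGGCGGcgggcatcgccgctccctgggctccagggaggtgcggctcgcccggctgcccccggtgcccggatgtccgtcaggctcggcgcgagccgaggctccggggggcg
Mllt10 promoter: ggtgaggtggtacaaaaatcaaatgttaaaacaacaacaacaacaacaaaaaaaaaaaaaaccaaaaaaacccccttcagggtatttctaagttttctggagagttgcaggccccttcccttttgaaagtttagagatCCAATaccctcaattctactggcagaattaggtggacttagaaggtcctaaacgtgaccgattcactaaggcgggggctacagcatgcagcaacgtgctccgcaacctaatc
Men1 promoter: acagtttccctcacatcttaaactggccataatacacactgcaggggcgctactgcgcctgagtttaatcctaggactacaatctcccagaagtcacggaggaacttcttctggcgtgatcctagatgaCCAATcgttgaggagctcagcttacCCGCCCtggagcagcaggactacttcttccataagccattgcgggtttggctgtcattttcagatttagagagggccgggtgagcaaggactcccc
Aff4 promoter: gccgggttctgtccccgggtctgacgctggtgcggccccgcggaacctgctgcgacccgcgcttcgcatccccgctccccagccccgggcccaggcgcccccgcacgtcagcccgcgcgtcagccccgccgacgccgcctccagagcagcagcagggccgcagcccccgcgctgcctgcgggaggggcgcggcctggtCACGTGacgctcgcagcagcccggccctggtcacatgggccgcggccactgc

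The Dot1l window lies at chr10:80754953-80755202 on the plus strand, holds 44 CpG dinucleotides and has 2 GC boxes and 1 ETS core. The Aff1 window, at chr5:103753912-103754161 on the plus strand, holds 35 CpG and 2 GC boxes. It belongs to an entry 61788 bases inside the GENCODE gene, which has another, earlier start, and the tables do not say which start these cells use. The Aff4 window, at chr11:53350517-53350766 on the plus strand, holds 34 CpG, no GC box and 1 E-box. The Mllt10 window at chr2:18054987-18055236 and the Men1 window at chr19:6334729-6334978, both on the plus strand and each 1 of 3 entries for its gene, hold 5 and 8 CpG. The ratio of observed to expected CpG was 0.45 in Mllt10 and 0.48 in Men1, against 0.90 in Aff1, 0.89 in Aff4 and 1.15 in Dot1l, and its median over all 32851 RefSeq windows of this length was 0.37. The 3 members called lower thus differ in CpG content, with a higher ratio in Aff1 than in the other two, and all 3 lay above that median. Mllt10 and Men1 each have 1 CCAAT match, and Men1 has 1 GC box. Over all windows, 32.7% hold the GC box, 33.9% CCAAT, 12.4% TATAAA, 6.02% CACGTG and 6.91% CCGGAAG, and none of the 9 members' windows holds TATAAA.

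Libraries held 96895327 to 145810034 counts in replicate 1 and 12299931 to 19544870 in replicate 2, so the first replicate was 7.46 to 9.62 times deeper in each group. Levels are given as CPM (the gene's count relative to its library's total, after TMM scaling between libraries), and as TPM, which also corrects for gene length, where genes are compared with each other. At these depths the lowest count of any member was 86 (Mllt3 in replicate 2 of 2C::GFP+/SA). The 8 ESC markers had a summed level of 4664 to 4925 CPM in mESC, 4583 to 5641 in 2C::GFP+, 3917 to 4183 in 2C::GFP+/SGC and 3292 to 3867 in 2C::GFP+/SA, and none was at 0. The 10 fibroblast feeder markers summed to 9.54 to 16.7 CPM in mESC, 14.8 to 17.8 CPM in 2C::GFP+, 24.3 to 24.4 CPM in 2C::GFP+/SGC and 34.4 to 38.9 CPM in 2C::GFP+/SA, with Dcn at 0 in mESC, Lum at 0 in 2C::GFP+, Twist2 at 0 in both and Postn at 0 in all groups but 2C::GFP+/SA. The 7 primitive endoderm markers summed to 67.3 to 73.8 CPM in 2C::GFP+ and 176 to 338 CPM in 2C::GFP+/SA, with 214 to 317 CPM in mESC and 55.4 to 67.9 CPM in 2C::GFP+/SGC. Lama1 alone made up at least 60.5% of this sum in every library. The other 6 markers together held 5.27 to 6.21 CPM in mESC, 6.11 to 13.2 CPM in 2C::GFP+, 9.96 to 21.0 CPM in 2C::GFP+/SGC and 69.4 to 128 CPM in 2C::GFP+/SA, with the SA libraries above all others. Against 2C::GFP+, 6 of the 8 ESC markers were called lower in 2C::GFP+/SA (calls as defined below), beside 13.8% of all tested genes. Of the 7 primitive endoderm markers, 6 were called higher there, beside 14.9% of all tested genes. The 6 markers of the 2-cell-like state summed to 1802 to 4984 CPM in 2C::GFP+/SA, against 409 to 525 CPM in 2C::GFP+. The part of these markers in the members' values was not tested, and in bulk RNA fewer cells of a type and less RNA per cell cannot be told apart.

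Per unit of length, Mllt6 was the most abundant member (mean of 125 TPM over the 8 libraries), followed by Aff4 (92.0 TPM), Men1 (86.0 TPM) and Dot1l (82.9 TPM). Mllt10 (58.9 TPM), Aff1 (55.9 TPM), Mllt1 (44.2 TPM) and Kmt2a (27.9 TPM) came next. Mllt3 was far lower, at a mean of 2.84 TPM and at most 3.97 TPM in any library. Neighbours in this order overlapped in their ranges over the 8 libraries, down to Mllt1 and Kmt2a, while Mllt3 stood apart from Kmt2a, whose lowest value was 16.2 TPM. Dot1l lay above 88.8% of tested genes by mean TPM, and Mllt3 above 38.6%. Summed over the members, the level was 633 to 675 TPM in mESC, 496 to 581 TPM in 2C::GFP+, 566 to 618 TPM in 2C::GFP+/SGC and 423 to 611 TPM in 2C::GFP+/SA, so the wild-type libraries were highest and the other groups overlapped.

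**Figure D1:**
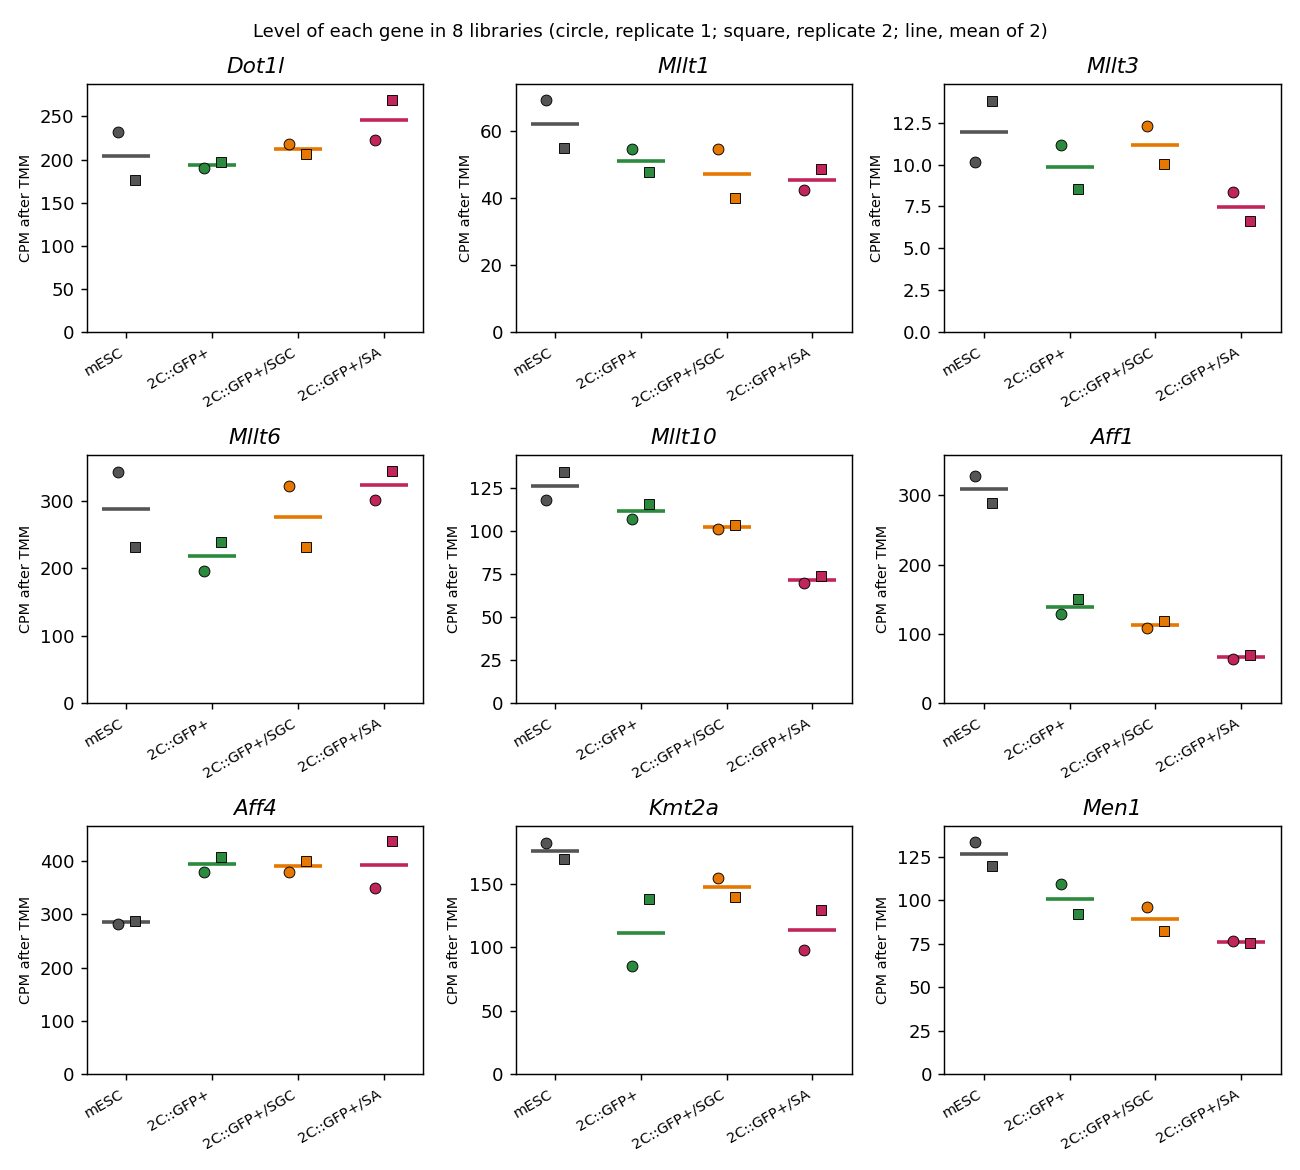
Level of each of the 9 members in CPM after TMM scaling (vertical axis, from 0) in the 4 groups (horizontal axis), with a circle for replicate 1, a square for replicate 2 and a line for their mean. Aff1 descends from 289 to 329 CPM in mESC to 63.6 to 69.9 CPM in 2C::GFP+/SA with no overlap between groups, while Dot1l stays between 176 and 269.6 CPM.

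Genes were called changed at an adjusted p under 0.05 (edgeR quasi-likelihood F test, Benjamini-Hochberg adjustment over all tested genes, two-sided), and a log2 fold change is given with its standard error (SE). Between mESC and 2C::GFP+, 3 of the 9 members were called, Aff4 higher and Aff1 and Kmt2a lower, where 24.3% of all tested genes were called (15.2% higher and 9.12% lower). With SGC0946 alone, 0 of 9 members were called, and 0% of all genes. At an unadjusted p under 0.05, 2037 genes passed (9.88%), Aff1 among them as the only member, and with DESeq2 288 genes were called, none of them a member. Between 2C::GFP+/SA and 2C::GFP+, the comparison called the full treatment below, Aff1, Mllt10 and Men1 were lower, 3 of 9 members, against 13.8% of all genes called lower, 14.9% called higher and 28.7% called in either direction. Between 2C::GFP+/SA and 2C::GFP+/SGC, Aff1 and Mllt10 were lower, 2 of 9 members, against 8.18% called lower and 16.1% in either direction. The median log2 fold change of the members was -0.28, -0.01, -0.18 and -0.24 in these comparisons in turn, beside 0.04, 0.03, 0.01 and -0.02 for all tested genes. In either direction the called shares of the members, 33.3% from mESC to 2C::GFP+, 33.3% in the full treatment and 22.2% between the treated groups, lie near the background. The shares called lower exceed it but rest on 2 or 3 genes, so the counts are no result about the gene set as a whole. Without replicate 1 of mESC, 1 member in place of 3 was called from mESC to 2C::GFP+. The comparisons share libraries, 2C::GFP+ above all, so they do not repeat one another independently.

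**Figure D2:**
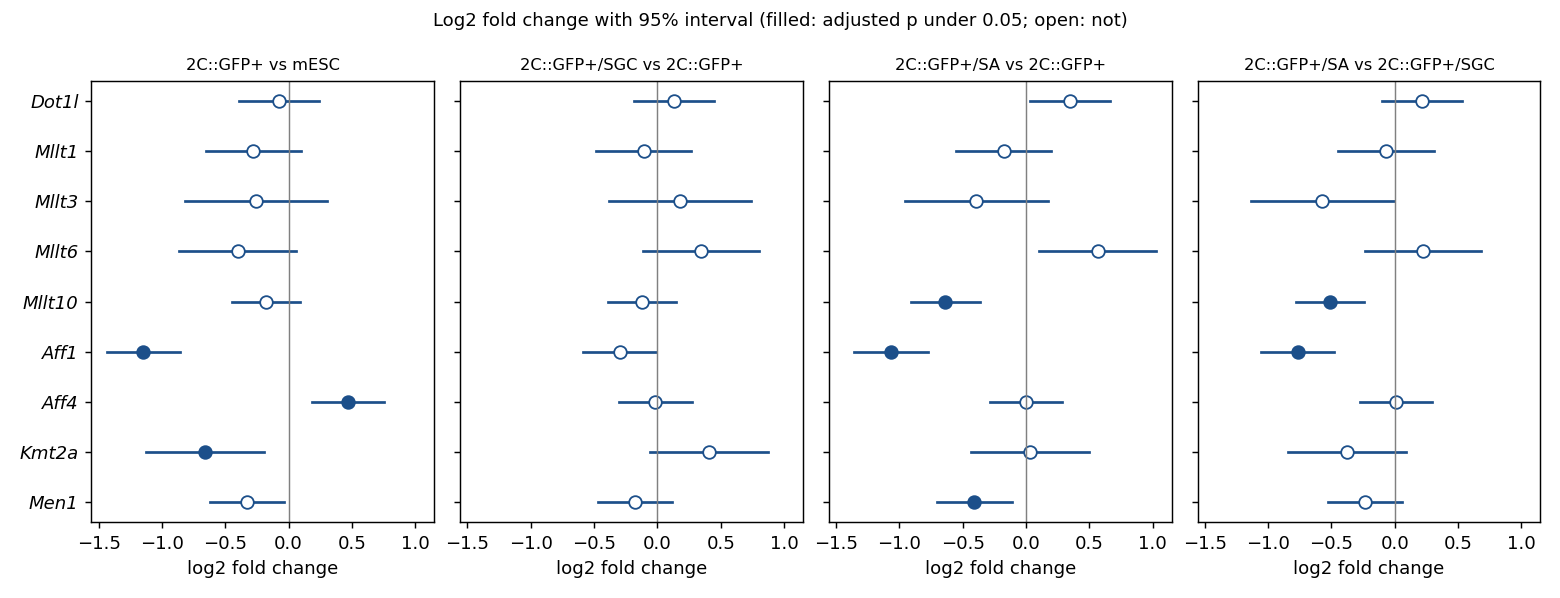
Log2 fold change (horizontal axis) of the 9 members with its 95% interval in 4 comparisons (panels), filled where the adjusted p was under 0.05 and open where it was not. Aff1 is filled and to the left in 3 panels, and no member is filled in the panel for SGC0946 alone.

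Dot1l (chr10:80755206-80795461, plus strand, GRCm38), the gene of the inhibited enzyme, was not called in any comparison. It stood at 232 and 176 CPM in the mESC libraries, 189.9 and 198 CPM in 2C::GFP+, 218 and 207 CPM in 2C::GFP+/SGC, and 223 and 269.6 CPM in 2C::GFP+/SA. The order of the group means was 2C::GFP+/SA, 2C::GFP+/SGC, mESC and 2C::GFP+, and the mESC libraries overlapped both of their neighbours. With SGC0946 alone the log2 fold change was 0.13 ± 0.15 (SE) with a 95% interval from -0.18 to 0.45, which includes 0. In 2C::GFP+/SA it was 0.35 ± 0.15 against 2C::GFP+ (adjusted p = 0.0957), with both SA libraries above both untreated ones, and 6 of 16 alternative analyses brought it under the threshold (adjusted p from 0.0289 to 0.352). In TPM these groups overlapped, with 73.3 and 111 in 2C::GFP+/SA and 69.1 and 79.5 in 2C::GFP+. The change of Dot1l from mESC to 2C::GFP+ was -0.08 ± 0.15.

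Mllt1 and Mllt3, the genes of the YEATS readers ENL and AF9, were not called in any of the comparisons. Mllt1 (chr17:56892611-56935415, minus strand) was highest in mESC, at 69.2 and 55.1 CPM, with 54.7 and 47.7 CPM in 2C::GFP+, 54.6 and 40.1 CPM in 2C::GFP+/SGC and 42.4 and 48.6 CPM in 2C::GFP+/SA. In CPM the mESC libraries lay above those of every other group, and the other groups overlapped. In TPM Mllt1 was higher in replicate 1 of 2C::GFP+/SGC (49.4) than in replicate 2 of mESC (48.7). Its value was -0.28 ± 0.17 from mESC to 2C::GFP+ (adjusted p = 0.273) and -0.18 ± 0.18 for the full treatment (adjusted p = 0.500). Mllt3 (chr4:87769925-88033364, minus strand) stood at 10.1 and 13.8 CPM in mESC, 11.2 and 8.55 CPM in 2C::GFP+, 12.3 and 10.1 CPM in 2C::GFP+/SGC and 8.34 and 6.63 CPM in 2C::GFP+/SA. The SA libraries were lowest and did not overlap the other groups, yet the value against 2C::GFP+/SGC, -0.57 ± 0.26, missed the threshold (adjusted p = 0.161). ENL transcripts outnumbered those of AF9 in all 8 libraries: Mllt1 held 92.4% to 95.7% of the summed TPM of the pair, with overlap between groups.

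Mllt10 and Mllt6, the genes of the coiled-coil partners AF10 and AF17, parted in the full treatment. Mllt10 (chr2:18055237-18212388, plus strand) stood at 118 and 134 CPM in mESC, 107 and 116 CPM in 2C::GFP+, 101 and 103 CPM in 2C::GFP+/SGC, and 69.7 and 73.6 CPM in 2C::GFP+/SA. In CPM the libraries of each group lay below those of the group before it, with the widest step to 2C::GFP+/SA. In TPM mESC (63.6 and 78.7), 2C::GFP+ (57.4 and 68.7) and 2C::GFP+/SGC (60.7 and 63.7) overlapped. Only 2C::GFP+/SA (33.8 and 44.9) stood apart. There Mllt10 fell by 0.64 ± 0.13 (log2) against 2C::GFP+ (adjusted p = 0.00213), which held in all 16 alternative analyses (highest adjusted p 0.0313). Against 2C::GFP+/SGC the log2 fold change of Mllt10 was -0.51 ± 0.13 (adjusted p = 0.0140). That call was lost without either 2C::GFP+/SGC library or without replicate 1 of 2C::GFP+/SA. SGC0946 alone gave -0.12 ± 0.13 (95% interval from -0.39 to 0.15). Of the Mllt10 exon bases, 749 (12.7%) overlap exons of Dnajc1 on the opposite strand, and the strand setting of the authors' counting is not given in the sources used here. Dnajc1 stood at 28.3 CPM or less in every library and moved the other way, by 1.11 ± 0.19 between 2C::GFP+/SA and 2C::GFP+ (adjusted p = 0.000751). The part of this overlap in the Mllt10 values was not tested.

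Mllt6 (chr11:97663414-97685463, plus strand) varied more between replicates, with 343 and 232 CPM in mESC, 197 and 239 CPM in 2C::GFP+, 322 and 231 CPM in 2C::GFP+/SGC, and 302 and 343 CPM in 2C::GFP+/SA. Its neighbouring groups overlapped throughout the order, and only 2C::GFP+ and 2C::GFP+/SA were apart from each other. The difference between these was 0.57 ± 0.21 (adjusted p = 0.0658), which passed the threshold in 9 of 16 alternative analyses (adjusted p from 0.000188 to 0.294). As a share of the pair's summed TPM, Mllt6 held 69.7% and 57.8% in the mESC libraries and 59.3% and 62.1% in 2C::GFP+. With treatment it held 71.6% and 63.9% in 2C::GFP+/SGC and then 77.4% and 78.7% in 2C::GFP+/SA. The share was highest in both SA libraries, above each of the other 6, and the range of mESC overlapped those of 2C::GFP+ and 2C::GFP+/SGC, which were apart.

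Aff1 and Aff4 encode alternative scaffolds of the super elongation complex, and Aff1 (chr5:103692374-103855322, plus strand) had the widest range of all members. It stood at 329 and 289 CPM in mESC, 128 and 151 CPM in 2C::GFP+, 108 and 119 CPM in 2C::GFP+/SGC, and 63.6 and 69.9 CPM in 2C::GFP+/SA. No groups overlapped in CPM, and the mean in mESC was 4.62 times that in 2C::GFP+/SA. From mESC to 2C::GFP+ Aff1 fell by 1.15 ± 0.13 (log2; adjusted p = 3.50e-05). In 2C::GFP+/SA it fell further, by 1.06 ± 0.14 against 2C::GFP+ (adjusted p = 9.01e-05) and by 0.77 ± 0.13 against 2C::GFP+/SGC (adjusted p = 0.00192). These 3 calls held in all 16 alternative analyses, with adjusted p-values of at most 0.0213. With SGC0946 alone the value was -0.30 ± 0.13, with a 95% interval from -0.58 to -0.01. Its unadjusted p of 0.0426 became 0.490 after adjustment (0.296 to 0.930 over the alternatives), although both treated libraries lay below both untreated ones. In TPM these libraries overlapped, with 43.0 and 55.9 in 2C::GFP+ and 40.6 and 45.8 in 2C::GFP+/SGC. By rank, 9.19% of all tested genes had a lower log2 fold change than Aff1 from mESC to 2C::GFP+, 13.7% with SGC0946 alone and 8.50% in the full treatment.

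Aff4 (chr11:53350833-53421830, plus strand) showed another pattern, with a single step between mESC and the other groups. The values were 281 and 288 CPM in mESC, 379 and 408 CPM in 2C::GFP+, 379.5 and 399.9 CPM in 2C::GFP+/SGC, and 349 and 437 CPM in 2C::GFP+/SA. Both mESC libraries lay below all others, and the 3 reporter groups overlapped. Aff4 rose by 0.47 ± 0.13 from mESC to 2C::GFP+ (adjusted p = 0.0200), a call that was lost in 5 of 16 alternative analyses (adjusted p up to 0.179): both limma fits to TPM, and without either mESC library or replicate 2 of 2C::GFP+. With SGC0946 alone the value was -0.01 ± 0.13 (95% interval from -0.30 to 0.27), and in the full treatment it was -0.003 ± 0.13 (-0.29 to 0.28). Aff1 thus held 62.4% and 58.7% of the summed TPM of the pair in mESC, and 32.5% and 34.4% in the libraries of 2C::GFP+. The treated groups were lower still, with 28.9% and 29.7% in 2C::GFP+/SGC and then 20.6% and 18.6% in 2C::GFP+/SA. The larger partner was Aff1 in both mESC libraries and Aff4 in the other 6, where Aff4 stood at 1.90 to 4.39 times the TPM of Aff1. The group order of this share did not overlap at any step.

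**Figure D3:**
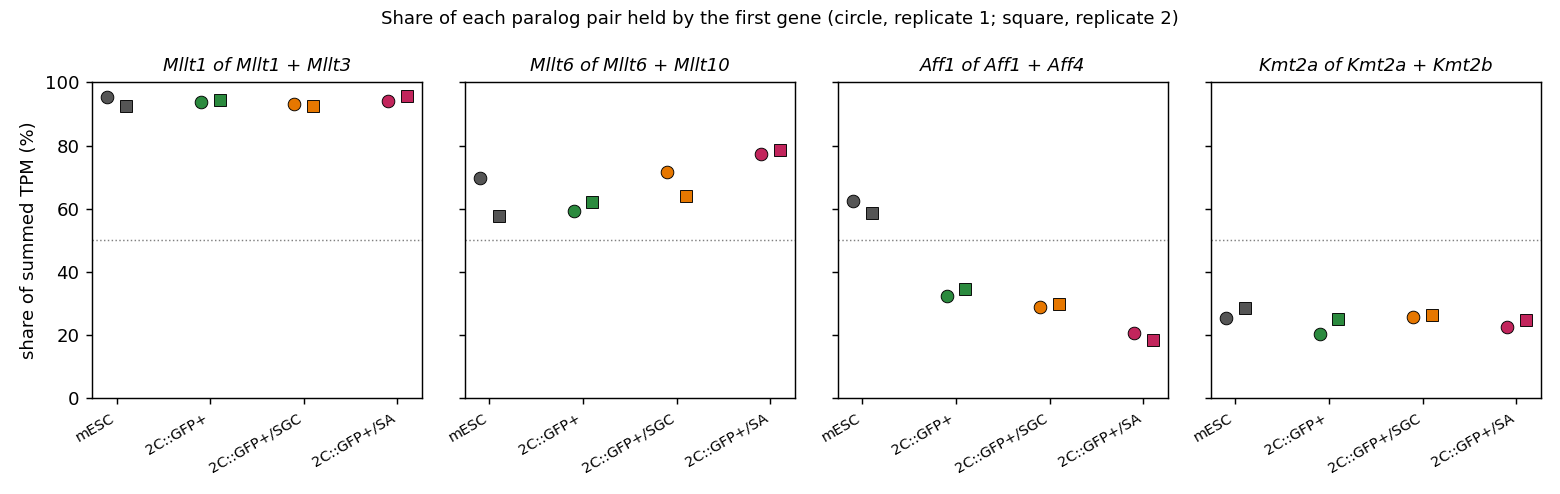
Share of the summed TPM (vertical axis, percent) held by the first gene of each of 4 paralog pairs in the 4 groups, with a circle for replicate 1, a square for replicate 2 and a dotted line at equal shares. The share of Aff1 drops from 58.7% or more in mESC to 20.6% or less in 2C::GFP+/SA, while that of Mllt1 stays at 92.4% or more.

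Kmt2a and Men1 encode the methyltransferase MLL1 and its tether menin. Kmt2a (chr9:44803355-44881296, minus strand) stood at 182 and 169 CPM in mESC, 85.2 and 138 CPM in 2C::GFP+, 155 and 139.5 CPM in 2C::GFP+/SGC, and 98.0 and 129.7 CPM in 2C::GFP+/SA. The 2C::GFP+ replicates were far apart, and their range held that of 2C::GFP+/SA. Kmt2a fell by 0.66 ± 0.21 (log2) from mESC to 2C::GFP+ (adjusted p = 0.0440). Between the deeper replicate 1 libraries alone it fell by 1.09, and between the replicate 2 libraries alone by 0.30. The call was lost in 9 of 16 alternatives (adjusted p up to 0.224), among them the fits without either mESC library, without replicate 1 of 2C::GFP+ or without replicate 1 of 2C::GFP+/SGC. With SGC0946 alone the value was 0.41 ± 0.21 (adjusted p = 0.556), and in the full treatment it was 0.03 ± 0.21 (adjusted p = 0.934). Kmt2a has the longest merged exons of the members, 16.67 kb. Among 1054 expressed genes of the longest class, the median log2 ratio of replicate 1 to replicate 2 was 0.0064 in mESC, -0.01 in 2C::GFP+, 0.05 in 2C::GFP+/SGC and, last, -0.07 in 2C::GFP+/SA. Among 1091 genes of the shortest class it was 0.14, 0.18, 0.02 and 0.155 in the same order, and the part of length in the Kmt2a values was not tested. As a share of its summed TPM with the paralog Kmt2b, Kmt2a held 20.3% to 28.5% in all libraries. Its share in mESC and 2C::GFP+/SGC (25.4% to 28.5%) lay above that in 2C::GFP+ and 2C::GFP+/SA (20.3% to 25.1%), with overlap inside each of these pairs of groups.

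Men1 (chr19:6334979-6340891, plus strand) stood at 133 and 120.0 CPM in mESC, 109 and 92.1 CPM in 2C::GFP+, 96.1 and 82.4 CPM in 2C::GFP+/SGC, and 76.5 and 75.3 CPM in 2C::GFP+/SA. The mESC libraries were highest and the SA libraries lowest, with overlap between 2C::GFP+ and 2C::GFP+/SGC. Men1 fell by 0.41 ± 0.14 (log2) in the full treatment against 2C::GFP+ (adjusted p = 0.0384), but 11 of 16 alternative analyses did not call it (adjusted p up to 0.274), among them DESeq2 and the fits without replicate 1 of any group or without replicate 2 of 2C::GFP+/SA. From mESC to 2C::GFP+ the value was -0.33 ± 0.14 (adjusted p = 0.0943), and with SGC0946 alone it was -0.17 ± 0.14 (adjusted p = 0.705).

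Groups that had SGC0946 were also compared with groups that did not, as the mean of 2C::GFP+/SGC and 2C::GFP+/SA against the mean of mESC and 2C::GFP+ on the log2 scale. In this comparison 36.7% of all tested genes were called (15.4% lower), and 3 of 9 members, all lower. Aff1 fell by 1.25 ± 0.10 (adjusted p = 5.97e-07), Mllt10 by 0.47 ± 0.09 (adjusted p = 0.000986) and Men1 by 0.46 ± 0.10 (adjusted p = 0.00222), each in all 15 alternative analyses. For Aff1 the 4 libraries with SGC0946 held 63.6 to 119 CPM and the 4 without it 128 to 329 CPM, without overlap. For Mllt10 the ranges of 69.7 to 103 CPM and 107 to 134 CPM did not overlap. For Men1 those of 75.3 to 96.1 CPM and 92.1 to 133 CPM did. In TPM the ranges of Aff1 and Mllt10 overlapped too. For Aff1 and Mllt10 in turn, replicate 2 of 2C::GFP+/SGC (45.8 and 63.7 TPM) lay above replicate 1 of 2C::GFP+ (43.0 and 57.4 TPM). Dot1l had a value of 0.20 ± 0.10 (adjusted p = 0.148) and Aff4 0.23 ± 0.09 (adjusted p = 0.0762). Mllt1 had -0.28 ± 0.12 (adjusted p = 0.0903) and Mllt6 0.26 ± 0.15 (adjusted p = 0.204). Of the 15 alternative analyses, 6 called Aff4, 4 called Mllt1, 3 called Dot1l and 3 called Mllt6. This contrast holds the difference between mESC and 2C::GFP+ and the added AS8351 and IL6 as well as SGC0946, and the step that SGC0946 alone makes was not called for any member.

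Other genes of the pathway were described from 6 lists of its known components. In the order given here, the lists had 27.3%, 20.0%, 23.1%, 40.0%, 18.2% and 50% of their genes called from mESC to 2C::GFP+, against 24.3% of all genes. In the full treatment they had 27.3%, 0%, 23.1%, 40.0%, 27.3% and 25%, each near or below the 28.7% of all genes but for the 40.0%, which is 2 of 5 genes. Among 11 genes of H2B ubiquitination and the PAF1 complex, which lie upstream of DOT1L, 3 were higher in 2C::GFP+ than in mESC and 0 lower, 1 was higher and 2 were lower in the full treatment against 2C::GFP+, and 0 were called with SGC0946 alone. Ctr9, a PAF1 complex scaffold, stood at 99.8 and 106 CPM in mESC, 157 and 173 CPM in 2C::GFP+, 185 and 229 CPM in 2C::GFP+/SGC, and 523 and 432 CPM in 2C::GFP+/SA. No groups overlapped, and Ctr9 rose by 0.68 ± 0.14 from mESC to 2C::GFP+ (adjusted p = 0.00323; 0.0518 without replicate 1 of mESC) and by 1.53 ± 0.15 in the full treatment (adjusted p = 1.22e-05). In the same comparison Rtf1, another PAF1 complex gene, fell by 0.63 ± 0.12 (adjusted p = 0.00177) and Ube2b, a ubiquitin-conjugating enzyme of this step, by 0.44 ± 0.15 (adjusted p = 0.0464; not called in 14 of 16 alternatives). In 2C::GFP+ against mESC, Leo1 rose by 0.58 ± 0.13 (adjusted p = 0.00506; 0.0522 without replicate 2 of mESC) and Paf1 by 0.40 ± 0.13 (adjusted p = 0.0359; not called in 8 of 16 alternatives). Opposite directions within 1 complex stood side by side in the full treatment, and the list's median was 0.01 there, as for all genes.

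Of 10 further genes of the super elongation complex, 0 were called in the full treatment against 2C::GFP+ (2 at an unadjusted p under 0.05), where Ccnt2 and Cdk9, subunits of P-TEFb, had values of 0.09 ± 0.13 and -0.0005 ± 0.13. From mESC to 2C::GFP+, 2 were higher, Ell2 by 0.47 ± 0.13 (adjusted p = 0.0198) and the AFF family gene Aff3 by 1.33 ± 0.38 (adjusted p = 0.0250), and these calls were lost in 4 and 5 of 16 alternatives. Aff3 was a low gene, at 3.41 CPM in mESC and 8.69 CPM in 2C::GFP+. Among 13 MLL and COMPASS genes, 3 were lower in the full treatment and 0 higher (23.1% called). Of all genes 28.7% were called there, and 13.8% were lower. Psip1, whose protein LEDGF tethers MLL1 with menin, stood at 238 and 223 CPM in 2C::GFP+ and 138 and 119 CPM in 2C::GFP+/SA, a fall by 0.84 ± 0.12 (adjusted p = 0.000254). Dpy30, a core COMPASS subunit, fell by 0.92 ± 0.15 (adjusted p = 0.000673) from 184 and 135 CPM to 83.5 and 85.0 CPM, and Wdr5, another core subunit, by 0.51 ± 0.13 (adjusted p = 0.00878; 0.104 in 1 alternative). From mESC to 2C::GFP+, Wdr5 fell by 0.54 ± 0.13 (adjusted p = 0.00743; 0.0746 in 1 alternative) and Setd1a by 0.48 ± 0.14 (adjusted p = 0.0283; not called in 4 alternatives), while Kmt2c rose by 0.67 ± 0.21 (adjusted p = 0.0376; not called in 11 of 16 alternatives).

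Among 5 further genes of YEATS and other acyl-lysine readers, Brd2 was higher and Yeats4 lower in the full treatment. Brd2, a BET family bromodomain gene, stood at 429 and 446 CPM in 2C::GFP+, 508 and 587 CPM in 2C::GFP+/SGC and 1070 and 1171 CPM in 2C::GFP+/SA. Its groups did not overlap, and it rose by 1.36 ± 0.14 against 2C::GFP+ (adjusted p = 1.60e-05), while Yeats4 fell by 0.45 ± 0.13 (adjusted p = 0.0225; not called in 7 of 16 alternatives). Yeats4 also fell from mESC to 2C::GFP+, by 0.41 ± 0.13 (adjusted p = 0.0392; not called in 6 of 16 alternatives). Of 11 DOT1L interactors and factors that oppose H3K79 methylation, 2 were higher and 1 lower in the full treatment (27.3%, against 28.7% of all genes). Kdm2b, a histone demethylase, stood at 122 and 115 CPM in mESC, 259 and 241 CPM in 2C::GFP+, 159 and 167 CPM in 2C::GFP+/SGC, and 121 and 150.3 CPM in 2C::GFP+/SA. It was highest in both untreated reporter libraries, above the other 6, rising by 1.08 ± 0.13 from mESC (adjusted p = 5.65e-05) and falling by 0.88 ± 0.13 in the full treatment (adjusted p = 0.000307). With SGC0946 alone its value of -0.62 ± 0.13 missed the threshold (adjusted p = 0.167). Suv39h1, an H3K9 methyltransferase, rose by 0.87 ± 0.20 in the full treatment (adjusted p = 0.00573; not called in 3 of 16 alternatives) and Bcor, a Polycomb-associated corepressor, by 0.45 ± 0.15 (adjusted p = 0.0387; not called in 4 of 16 alternatives). Sirt1, a deacetylase, was the other list gene that rose from mESC to 2C::GFP+, by 0.78 ± 0.15 (adjusted p = 0.00153).

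The last list holds 12 genes known as targets of MLL fusions, menin or DOT1L, largely but not only in leukemia, and it was not chosen for ESCs. In 2C::GFP+ against mESC 3 were higher and 3 lower (50%, against 24.3% of all genes). In the full treatment against 2C::GFP+ 0 were higher and 3 lower (25%, against 28.7% of all genes). Between the groups with and without SGC0946, 6 were higher and 3 lower (75.0%), where 36.7% of all genes were called and 21.3% were higher. That contrast also holds the difference between mESC and 2C::GFP+ and the added AS8351 and IL6. Hoxa5 and Hoxa10 were among its 6 genes called higher, each at only 0.03 and 0.10 CPM in the mESC libraries. With SGC0946 alone, 0 of the 12 were called and 0 had an unadjusted p under 0.05. Eya1, a transcriptional coactivator, stood at 27.8 and 22.4 CPM in mESC, 5.21 and 5.58 CPM in 2C::GFP+, 4.24 and 2.72 CPM in 2C::GFP+/SGC, and 1.33 and 1.46 CPM in 2C::GFP+/SA. It descended without overlap in CPM, as Aff1 did. The log2 fall was 2.23 ± 0.28 from mESC to 2C::GFP+ (adjusted p = 5.59e-05) and 1.97 ± 0.30 in the full treatment (adjusted p = 0.000335). Cdk6, a cell-cycle kinase, fell by 1.21 ± 0.30 in the full treatment (adjusted p = 0.0143; up to 0.0917 in 2 of 16 alternatives) and Cdkn1b, a cell-cycle inhibitor, by 0.51 ± 0.16 (adjusted p = 0.0297; not called in 10 of 16 alternatives). Pbx3 rose from mESC to 2C::GFP+ by 1.16 ± 0.25 (adjusted p = 0.00352) and Jmjd1c by 0.62 ± 0.14 (adjusted p = 0.00656; not called in 3 alternatives). Hoxa10 rose from 0.03 and 0.10 CPM to 0.70 and 0.95 CPM (adjusted p = 0.00186; not called in 2 alternatives), which rests on 4 and 2 counts in the mESC libraries. In the full treatment the list's median was 0.73, against 0.01 for all genes, although its only called members were lower. The 6 genes above this median (Hoxa5, Hoxa7, Hoxa9, Hoxa10, Meis1 and Mef2c) were low genes, at a mean of 1.69 CPM or less in 2C::GFP+.

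**Figure D4:**
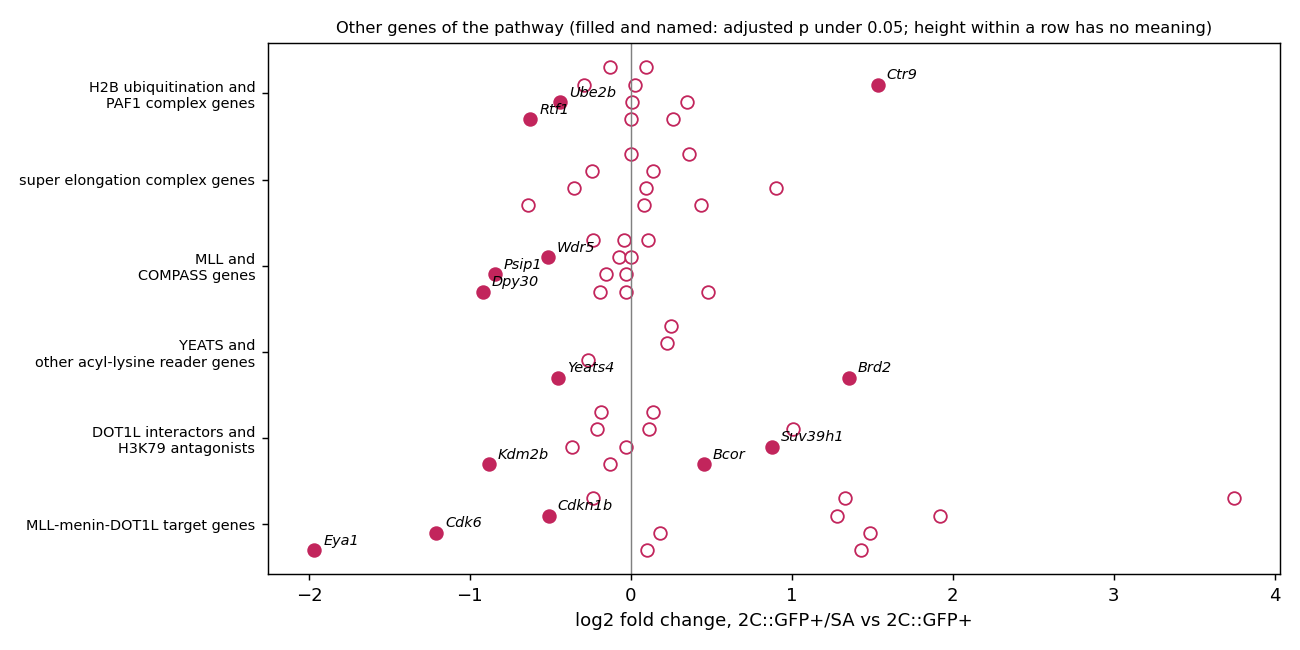
Log2 fold change between 2C::GFP+/SA and 2C::GFP+ (horizontal axis) for the genes of 6 pathway lists (rows, with the height inside a row carrying no meaning), filled and named where the adjusted p was under 0.05. Ctr9 and Brd2 lie farthest right among the named genes, at 1.53 and 1.36, and Eya1 lies farthest left, at -1.97.

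From the genes with a mean of at least 10 CPM, predicted gene models and genes with identifier-like names were left out. Among the 8924 candidates, genes with the most similar pattern were sought by Pearson correlation of log2 CPM over the 8 libraries. For Dot1l these were Pigq (r = 0.965), Kifc5b (0.942), Bptf (0.940), Pitpnm2 (0.912) and Ap5z1 (0.904), of which Pigq ranged from 54.5 to 69.1 CPM. For Aff1 they were Npc2 (r = 0.995), Rragd (0.995), Tmem127 (0.993), Klf15 (0.992) and Cd63 (0.992). Npc2 descended from 315 CPM in its highest library to 78.7 CPM in its lowest, and Rragd from 108 to 8.01 CPM. These values describe 8 libraries that share the groups and the large difference in depth, and the best of many candidates is high by selection.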

How the data were processed

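Polyadenylated RNA of 8 libraries was sequenced with an Illumina protocol, per the labels' protocols. The submitters' processing notes list featureCounts 2.0.0, the aligner STAR 2.7.4a, the trimmer Trim Galore 0.6.5 and, for quality control, FastQC 0.11.9, with builds mm10 and GRCm38. How strand and multi-mapping reads were handled is not given in the sources used here. As values, the authors deposited whole-number counts per gene without normalization, and TPM values per gene. Columns were matched to samples by name for 6 libraries and by elimination for 2, and 0 columns were left out.

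Counts were scaled by TMM (factors 0.942 to 1.059), filtered with filterByExpr and fitted in edgeR 4.0.16 by robust quasi-likelihood, with every library in 1 model (4 residual degrees of freedom, common coefficient of variation 20.6%). P-values were adjusted by Benjamini-Hochberg over 20608 genes in each of 5 comparisons. The SE was derived as |log2 fold change|/√F. Alternatives used DESeq2 1.42.0, RLE factors, no filter, a filter of 1 CPM in 2 libraries, limma 3.58.1 on log2(TPM + 1) and log2(TPM + 0.1), a replicate block, only the libraries compared, and each library left out. The scripts were tested on simulated data.

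Members and 10 gene lists (93 other genes) were chosen with earlier results of these data known. Named list genes are up to 3 called in the more frequent direction and 1 in the other, by adjusted p, or the 2 highest by CPM where none was called. For 1 gene that the rule names, the result is not reported here. Named similar genes are the 5 candidates, predicted gene models left out, with the highest correlation with Dot1l and with the member of the widest range. Dnajc1 was named because its exons overlap those of Mllt10, in GENCODE M21. Promoter sequences are from RefSeq, with all 9 members matched.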

Additional observations from a re-analysis of the deposited data

How the results depend on the processing

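Across 711 member values under the alternatives, 648 stayed on the same side of the threshold, 28 lost a call and 35 gained one. The sign changed in 29 values, none of them called in either analysis, and 20 of these were for Aff4. From mESC to 2C::GFP+, 1 member was called by limma on log2(TPM + 1) and 1 with log2(TPM + 0.1), and 1 to 4 when a library was left out; 2924 of all genes were called by limma on log2(TPM + 1), and 2872 to 5869 when a library was left out. With SGC0946 alone no alternative called a member, while the genes called overall were 288 with DESeq2, 499 without a filter, 1 by limma on log2(TPM + 0.1), 326 with only the libraries compared and 0 to 431 when a library was left out (431 without replicate 2 of 2C::GFP+/SA). In the full treatment 5 members were called with the stricter filter, and 2 to 4 when a library was left out, with 2890 to 5861 genes overall (2890 without replicate 1 of 2C::GFP+). Between 2C::GFP+/SA and 2C::GFP+/SGC, 1 to 2 members and 1207 to 3324 genes were called when a library was left out (1207 without replicate 1 of 2C::GFP+/SGC), and 2210 genes with only the libraries compared. For the groups with and without SGC0946, 5 members were called with RLE factors and 5 without a filter, and 3 to 5 members with 5572 to 7844 genes when a library was left out. The cause was not tested. The labels do not say that a replicate number marks a shared culture or batch, although the number goes with depth, and the correlation of same-numbered deviations was 0.041 to 0.142 between groups, above 0.1 in 3 of 6 pairs of groups, so the samples were not treated as paired. With the replicate block, 284 genes were called with SGC0946 alone in place of 0, and 5 members in place of 3 for the groups with and without SGC0946, where Mllt1 and Aff4 gained a call, as Men1 did from mESC to 2C::GFP+. With limma on log2(TPM + 1) the median of all genes between 2C::GFP+/SA and 2C::GFP+/SGC was -0.13 in place of -0.02. With 2 libraries a group and a shallower second replicate, small changes of single members may have been missed, and no detection limit was computed for them.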
